A study of Rattus norvegicus with 12 samples.

Results

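Hearts of rats given a cardiac patch after myocardial infarction (Patch) were compared with hearts of rats left with an untreated infarction (MI). The comparison rests on 8 libraries, the 4 Patch libraries P695, P697, P699 and P985 and the 4 MI libraries MI1, MI2, MI162 and MI165, in a series of 12 samples that also holds sham-operated rats. All animals were wild-type Sprague Dawley rats. The MI group had the infarct operation alone, and in the Patch group a patch was sewn with silk thread to the edge of the infarct. The labels give the tissue as heart, and the series title speaks of left ventricular myocardium. Age, sex, time after infarction, patch material and the region sampled are not given in the labels. The labels also do not say whether replicates came from separate animals, so p-values measure only the spread between these samples.

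A myocardial infarct kills cardiomyocytes, and the lost muscle is replaced by scar made by fibroblasts, with immune cells clearing the debris. The surviving wall is stretched and remodels. A patch sewn over the infarct is meant to support that wall, and the series title ties it to unloading of stretch. In such tissue, contractile and mitochondrial genes give some of the most abundant transcripts of muscle cells, and matrix genes some of the most abundant of scar. Which of the genes described here belong to which kind could not be read from these data, since the table lists Ensembl gene identifiers without symbols and 0 of its 19955 identifiers matched the gene table used here. The heart label could therefore not be checked against marker genes. In bulk tissue, fewer cells of a type and less RNA per cell cannot be told apart.

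Genes were described by abundance and by effect size. Abundance is the mean normalized signal over the 8 libraries, a scaled read number. It is not divided by gene length, so it ranks genes by how precisely they were counted and not by their number of molecules. Effect size is the difference of mean log2(signal + 1), Patch minus MI. A gene was called at a limma adjusted p (Benjamini-Hochberg) under 0.05 in a fit on these 8 libraries alone.

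The libraries were not alike in depth or make-up. Every MI library was deeper (12932419 to 14110864 reads) than every Patch library (11420710 to 12565137). The total of the deposited signal ran the other way, at 11142466 to 12018371 in MI and 12519929 to 13553933 in Patch. Signal differences are on this deposited scale unless another scaling is named. The 1000 strongest genes of a library held 53.3 to 57.0% of its signal in MI and 58.2 to 61.0% in Patch, without overlap (means 54.7 ± 1.61 and 59.4 ± 1.21%, SD, n = 4; two-sided exact permutation test, p = 0.0286, the smallest possible, adjusted 0.0477 over 5 library measures). The 100 strongest genes gave the same separation (22.1 to 24.8% in MI and 25.3 to 28.5% in Patch), but the shares of the 10 strongest overlapped (6.97 to 8.96% and 7.96 to 10.4%; two-sided exact permutation test, p = 0.0857, adjusted 0.107). MI2 stood apart with 5474 genes at 0 against 2400 to 2736 in the other MI libraries and 2781 to 3269 in Patch. It also had only 169 genes with 1 read, against 632 to 922 in the other MI libraries and 936 to 979 in Patch. The numbers of genes called are given with and without MI2, and with and without P699, the Patch library nearest to MI. Signal shares, their concentration on few genes and counts of genes without overlap are given for all 8 libraries only. So are the counts of higher and lower genes at each size of difference.

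With all 8 libraries, 1437 of 17109 genes tested were called, which is 8.4%. Of these, 806 were higher and 631 lower in Patch. The smallest adjusted p was 0.0155, and 869 of the called genes differed by at least 2-fold. Before adjustment, 4885 genes (28.6%) had a p under 0.05. The calls were not spread evenly over abundance. They made up 1.02% of 3131 genes with a mean signal of 1 to 10, 3.87% of 3906 genes at 10 to 100, 10.3% of 7583 genes at 100 to 1000 and 19.0% of 2489 genes of at least 1000. The median standard error fell with abundance over the same classes, from 0.793 through 0.472 and 0.199 to 0.187 log2 units. The median absolute difference of the genes tested was 0.696, 0.56, 0.321 and 0.412 log2 units. Between the strongest classes it thus rose, while the standard error changed little.

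**Figure D1:**
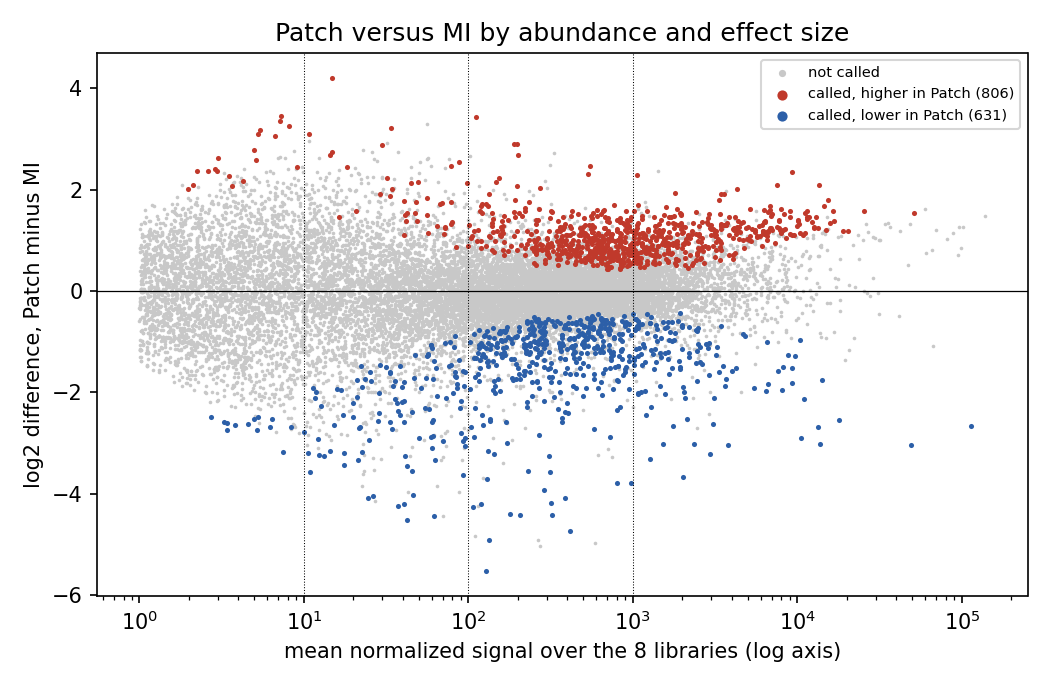
Log2 difference (Patch minus MI) of each gene tested against its mean normalized signal over the 8 libraries, on a log axis; red and blue points are the 806 and 631 genes called higher and lower in Patch, grey points were not called, and dotted lines mark the abundance classes. Blue points reach farther from 0 than red ones, and red points are the majority among the most abundant genes.

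Size and call did not coincide. Among genes of 1 to 10, 1001 (32.0%) differed by at least 2-fold and 32 of these were called. At 10 to 100 these numbers were 1024 and 147, at 100 to 1000 they were 715 and 391, and among genes of at least 1000 they were 430 and 299. A 2-fold difference was thus called in 3.2% of cases in the weakest class and in 69.5% in the strongest. The smallest difference called was 2.02 log2 units at 1 to 10, 0.88 at 10 to 100, 0.43 at 100 to 1000 and 0.44 at 1000 or more. In the weakest class no difference under 4-fold was called with all 8 libraries.

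Small differences were also called where signal was strong. Of the 781 calls at 100 to 1000, 49.9% were under 2-fold, as were 36.8% of the 473 calls of at least 1000. Across all classes, 74 calls were under 1.5-fold, 494 between 1.5- and 2-fold, 673 between 2- and 4-fold and 196 at 4-fold or more.

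The direction of the calls differed between abundance classes, without a steady order. Of the 32 genes called at 1 to 10, 19 were higher and 13 lower in Patch (59.4% higher). At 10 to 100, 40 were higher and 111 lower in Patch (26.5% higher). At 100 to 1000 the numbers were 406 and 375 (52.0% higher). Of the genes called with a mean signal of at least 1000, 341 were higher and 132 lower (72.1% higher). Over all genes tested, called or not, the median log2 difference was 0.005 at 1 to 10, −0.09 at 10 to 100, −0.02 at 100 to 1000 and 0.16 at 1000 or more. These classes were not compared by a test, since genes of 1 library are not independent replicates.

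The balance between the directions depends on the tool and on the scaling. On recovered reads of the 8 libraries, edgeR called 464 genes higher and 554 lower in Patch (45.6% higher). DESeq2 called 1583 higher and 1634 lower (49.2% higher). When each library was scaled to the same total signal, 28.8% of 1812 calls were higher in Patch, against 56.1% of 1437 as deposited, and the median of all genes moved to −0.171 from 0. The share higher was then 12.7% at 10 to 100 and 45.5% at 1000 or more. Under quantile scaling it was 43.8% and 54.8%. The strongest class had the larger share of higher calls in 27 of 27 settings with at least 20 calls in both classes. These settings share most of their libraries, some leave out 1 or 2, and they are not independent.

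With the signal as deposited, the largest differences were more often toward lower signal in Patch. At 4-fold or more, 148 of the genes tested were higher and 347 lower, of which 48 and 148 were called. Among genes of at least 1000, 6 were higher and 30 lower by 4-fold or more, with 5 and 24 called. Between 2- and 4-fold the balance of that class was the other way, with 289 higher (205 called) and 105 lower (65 called). The median log2 difference of the called genes of this class was 1.11 for those higher and −1.27 for those lower. At 10 to 100 it was 1.75 and −2.18. Among abundant genes, those called higher in Patch were thus more numerous. The order of the median sizes in the strongest class turned without MI2, to 1.02 for genes called higher and −0.87 for genes called lower, and without MI2 and P699 it was 1.10 and −1.03.

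In amount of signal, the called genes were a considerable part of each library. The 806 genes called higher held 7.17% of the signal in MI1, 12.0% in MI2, 6.04% in MI162 and 8.99% in MI165. In Patch they held 18.0% in P695, 16.0% in P697, 15.0% in P699 and 16.6% in P985. The group means were 8.55 ± 2.6% in MI and 16.4 ± 1.25% in Patch (SD, n = 4). MI2 had the highest share among the MI libraries and P699 the lowest among the Patch libraries.

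The 631 genes called lower held 10.3% of the signal in MI1, 5.09% in MI2, 14.7% in MI162 and 8.33% in MI165. In Patch they held 1.91% in P695, 2.47% in P697, 3.48% in P699 and 2.28% in P985, which gives 9.61 ± 4.02% in MI and 2.54 ± 0.672% in Patch (SD, n = 4). Again MI2 and P699 were the libraries of their groups nearest to the other group, and MI162 was the farthest. The genes were called on these libraries, so the separation of the groups is a description. Most of both shares came from genes of at least 1000, which held 14.2 of the 16.4% for genes higher and 1.81 of the 2.54% for genes lower in Patch. This holds for signal in general: all genes of that class, called or not, held a mean of 75.4% of the signal in Patch and 71.4% in MI.

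**Figure D2:**
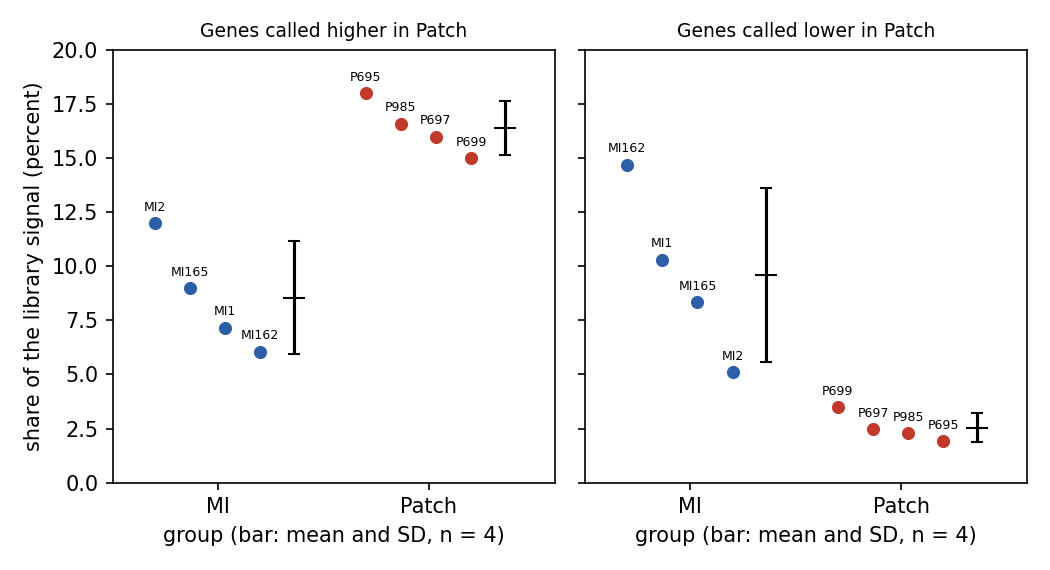
Share of each library's signal, in percent, held by the 806 genes called higher (left) and the 631 called lower (right) in Patch; points are libraries and bars are the mean and SD of 4. The Patch libraries sit at 15.0 to 18.0% on the left and at 1.91 to 3.48% on the right, and MI2 is the MI point nearest to them in both.

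Among called genes, the signal lower in Patch was concentrated on few genes. Summed over the 631 genes called lower, 41.0% of the difference in mean signal came from 5 genes, and 11 genes made up 50% or more. Over the 806 genes called higher, 5 genes gave 10.2% and it took 63 genes to reach the same mark. This contrast did not extend to all genes tested. There 5 genes gave 18.5% of the difference among those lower and 11.4% among those higher, but 50 genes gave 38.2 and 38.6%, and it took 136 genes among those lower and 104 among those higher to reach 50%. The 5 largest losses of mean signal among all genes tested had log2 differences of −3.04 to −1.09, and 4 of the 5 were called. None of the 5 largest gains was called (log2 1.14 to 1.61, limma adjusted p 0.0583 to 0.214), although the groups did not overlap in 4 of them. With all 8 libraries the 5 largest gains in Patch were thus outside the list of calls. Without MI2, 4 of these 5 genes were called (limma adjusted p 0.00365 to 0.0497), and the other had an adjusted p of 0.0704.

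The 4 genes named here were chosen as the largest called differences in the strongest class and as the largest differences of mean signal. ENSRNOG00000058105 had the largest called log2 difference upward among genes of at least 1000. Its signal was 10090 in MI1, 3084 in MI2, 695.8 in MI162 and 2793 in MI165, and 15280, 14400, 16730 and 11120 in P695, P697, P699 and P985. The Patch libraries lay close together, while MI1 came near them and MI162 was far below. The means were 4167 ± 4090 in MI and 14380 ± 2370 in Patch (SD, n = 4), 2.35 log2 units apart (SE 0.634, limma adjusted p 0.0492). The call stood at the threshold: over 33 alternatives the adjusted p ranged from 0.00242 to 0.216, and 11 passed. The difference itself ran from 1.42 to 3.35, and leaving out 1 library gave 1.68 without MI162 (limma adjusted p 0.0807) and 2.97 without MI1 (limma adjusted p 0.0472). Among those that did not pass were the fits without P699 (0.0811) and without MI2 and P699 (0.0643).

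ENSRNOG00000058470 had the largest called log2 difference downward in that class that left no overlap between the groups. Its signal was 862.3, 448.9, 6614 and 1618 in MI1, MI2, MI162 and MI165. In P695, P697, P699 and P985 it was 65.14, 216.6, 197.3 and 149.4. MI162 was several times above the other MI libraries and MI2 lowest, but still above each Patch library. The log2 difference was −3.31 (SE 0.717, limma adjusted p 0.0304), with means of 2386 ± 2860 and 157.1 ± 67.5 (SD, n = 4). Without MI2 it was −3.87 (SE 0.647, limma adjusted p 0.00406), and without MI162 it was −2.57 (limma adjusted p 0.0545).

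ENSRNOG00000003357 had the largest loss of mean signal of all genes tested. Its signal was 191000 in MI1, 82110 in MI2, 327400 in MI162 and 180700 in MI165, and 19000 in P695, 22990 in P697, 57500 in P699 and 22740 in P985. P699 was the highest Patch library by a wide gap and MI2 the lowest MI library, and the groups did not overlap. The means were 195300 ± 101000 in MI and 30560 ± 18100 in Patch (SD, n = 4), 6.39-fold lower in Patch. The log2 difference of −2.67 (SE 0.593, limma adjusted p 0.0319) became −3.38 (SE 0.423, limma adjusted p 0.00216) without MI2 and P699. Both this gene and ENSRNOG00000058470 passed in 24 of 33 alternatives. The 9 in which they did not were limma without MI1, MI162, MI165, P695, P697 or P985 and edgeR without P695, P697 or P985.

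ENSRNOG00000004583 had the largest gain of mean signal and was not called. Its signal was 57770 in MI1, 136300 in MI2, 41870 in MI162 and 74570 in MI165, against 233900, 216200, 157700 and 191500 in P695, P697, P699 and P985. The groups did not overlap, and MI2 and P699 were again the libraries of their groups nearest to the other group. The means were 77620 ± 41300 and 199800 ± 33000 (SD, n = 4), 1.49 log2 units apart (SE 0.629, limma adjusted p 0.153). Without MI2 the same gene passed, at 1.81 (SE 0.456, limma adjusted p 0.0205). Over the 33 alternatives the adjusted p ran from 0.00113 to 0.352, and 9 passed.

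**Figure D3:**
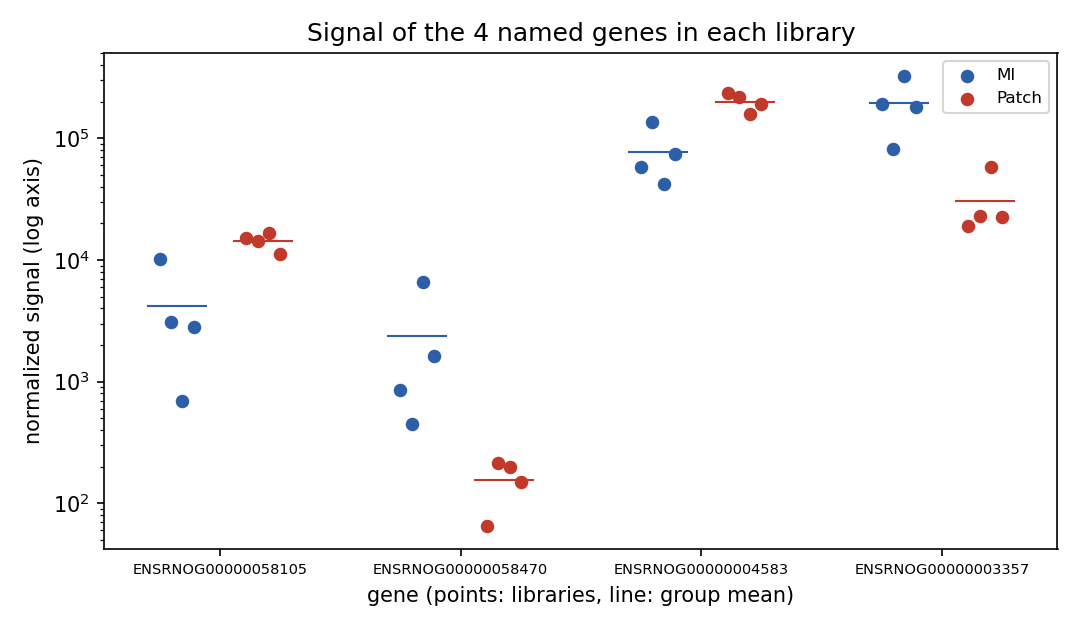
Normalized signal, on a log axis, of the 4 named genes in each MI (blue) and Patch (red) library, with lines at the group means. The groups do not overlap in any of the 4, the MI points are spread farther than the Patch points in each, and MI162 is the MI library farthest from Patch in each.

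By the same naming rule, which leaves out the class of 1 to 10, the 4 largest called differences without overlap were summarised in each direction for the other 3 classes. At 10 to 100 the log2 differences were 2.68 to 4.21 upward and −4.51 to −4.21 downward, at 100 to 1000 they were 2.68 to 3.43 and −5.52 to −4.42, and at 1000 or more 2.09 to 2.35 and −3.31 to −3.03. Their limma adjusted p lay between 0.0193 and 0.0492. The downward differences exceeded the upward ones at 100 to 1000 and at 1000 or more. At 10 to 100 the ranges met at 4.21, and at 1 to 10 the largest called difference was 3.46 upward and −3.17 downward. Such folds include genes near 0 in a group: all MI libraries had 3 reads or fewer in 18 called genes, and all Patch libraries in 17, where the fitted difference depends on the added 1 and is no measure of the true ratio.

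Without regard to p, the 4 Patch values lay entirely above or below the 4 MI values in 3006 genes (17.6% of those tested, beside 8.4% called), 1675 higher and 1331 lower in Patch. Of the 1437 called genes, 1338 had no overlap. Another 1668 genes without overlap were not called, among them 385 with at least a 2-fold difference. Most of these 385 were weak, with 122 at 1 to 10 and 175 at 10 to 100, but 45 had a mean signal of at least 1000. More of the genes whose groups separate completely were thus outside the calls than inside.

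The spread behind these calls was unequal. The SD of a gene was larger in MI than in Patch for 79.6% of genes tested, and for 87.1% of genes of at least 1000. In that class the median SD (log2) was 0.342 in MI and 0.155 in Patch. Without MI2 and P699 it was 0.284 and 0.122, and MI still had the larger SD in 84.7% of the genes. At 1 to 10 the share was 72.8% with all libraries and 56.9% without MI2 and P699. The wider spread of MI among abundant genes was thus present without MI2 and P699. The fit uses 1 spread for both groups.

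MI2 was the only single library whose removal raised the number of calls. With the other 7 libraries, 4278 of 17186 genes were called (24.9%), 2220 higher and 2058 lower in Patch. They included all 1437 genes called before. The 2839 added genes tested in both fits had a median absolute difference of 0.70 log2 units with MI2 and 0.92 without it, while their median standard error went from 0.259 to 0.211. Only 7 of them had another sign with MI2. Calls rose in every class, to 5.27% at 1 to 10, 16.7% at 10 to 100, 30.4% at 100 to 1000 and 46.4% at 1000 or more. Of the 2-fold differences in the strongest class, 94.3% were then called. The share of calls higher in Patch was 26.0% at 1 to 10, where it had been 59.4% with MI2, 31.2% at 10 to 100, 50.4% at 100 to 1000 and 70.3% at 1000 or more.

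Without P699, 1167 of 17071 genes were called (6.84%), 528 higher and 639 lower in Patch. Of these, 971 were among the 1437 called with all libraries. The split of directions turned, from 56.1% to 45.2% higher. In the strongest class the genes called higher went from 341 to 224, while those called lower were 132 and 133. At 10 to 100 the genes called higher went from 40 to 20, while those called lower were 111 and 109. The share higher in that class was 15.5% without P699. The 466 genes lost had a median absolute difference of 0.92 with P699 and 0.96 without it, and their median standard error went from 0.233 to 0.263. The 196 genes gained went from 0.99 to 1.28. Genes called at 4-fold or more went from 196 to 225, beside 581 without MI2 and 727 without MI2 and P699. Those called at 2-fold or more numbered 869 with all libraries, 866 without P699, 2254 without MI2 and 2574 without both.

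Without both MI2 and P699, 4287 of 17154 genes were called (25.0%), 2116 higher and 2171 lower. Of the 4278 genes called without MI2 alone, 3778 (88.3%) were shared. Of the 1437 genes called with all libraries, 1410 were called here. The median absolute log2 difference of all genes tested was 0.427 with all libraries, 0.502 without MI2, 0.461 without P699 and 0.537 without both. In the strongest class 45.4% of genes were called, of which 69.9% were higher in Patch, and 75 were called at 4-fold or more, against 29 with all libraries.

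**Figure D4:**
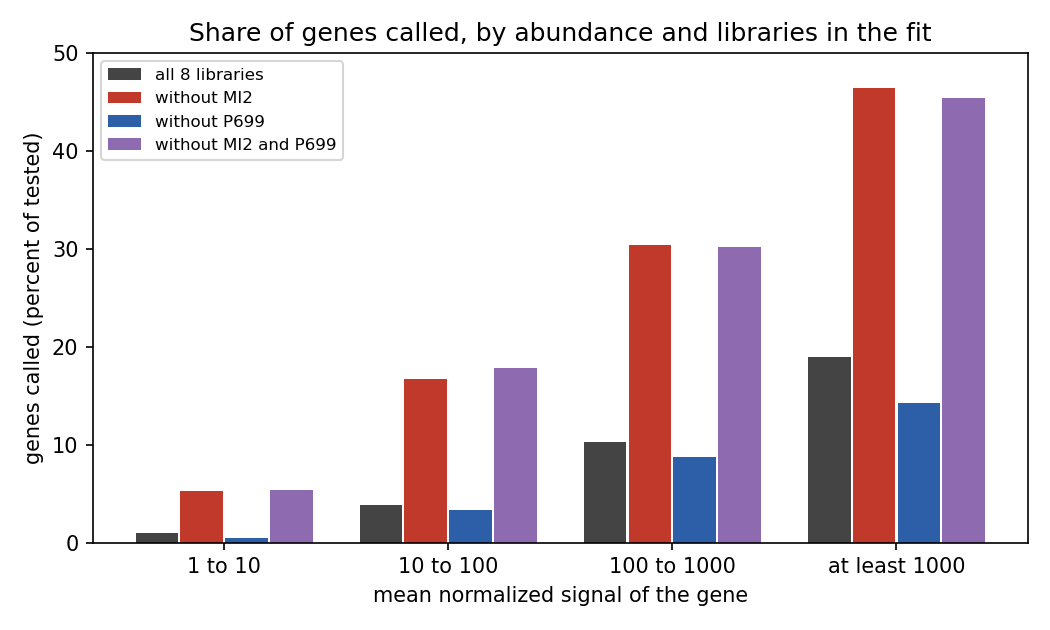
Percent of genes tested that were called (limma adjusted p under 0.05) in 4 abundance classes, for fits on all 8 libraries, without MI2, without P699 and without both. In the strongest class the bars are at 19.0, 46.4, 14.3 and 45.4%, and in each fit the percent called rises from the weakest to the strongest class.

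The other libraries were left out in the same way. Without MI1, MI162 or MI165, limma called 306, 101 and 569 genes. Without P695, P697 or P985 it called 0, with smallest adjusted p of 0.0808, 0.0625 and 0.0773. At an unadjusted p under 0.05 these fits had 3470, 3885 and 3688 genes (20.3, 22.7 and 21.6% of those tested), and edgeR on recovered reads also called 0 in each, with 3435, 3853 and 3632 genes at an unadjusted p under 0.05. Over the 1437 genes the median standard error was 0.25 with all libraries and 0.276 to 0.285 without P695, P697 or P985, and the median absolute difference was 1.13 and 1.07 to 1.15. The number of genes called on these 8 libraries therefore rested most on each of P695, P697 and P985, and also on MI162, MI1 and MI165. The median size changed little without any of those 3 Patch libraries, but the 1437 genes had been chosen with all 8 libraries. Without MI162 the median absolute difference of these genes was 0.998. With MI2 left out as well, the fits without P695, P697 or P985 called 2490, 2803 and 2507 genes.

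The place of each library between the groups was measured with genes chosen by their difference among the other libraries. For each library, genes with a 2-fold difference between the groups without it were taken where the mean over all 8 libraries, which includes the library placed, was at least 10. The library's log2 signal was placed on a scale from the other Patch libraries' mean (0%) to that of the other MI libraries (100%). The MI libraries lay at 82.9% (MI1), 19.0% (MI2), 108.0% (MI162) and 77.0% (MI165). The Patch libraries lay at −10.1% (P695), 5.9% (P697), 41.5% (P699) and 5.8% (P985). Over these classes together MI2 lay nearer to the Patch mean than P699 did, but not among the strongest genes. By class, MI2 was at 8.5% (10 to 100), 25.7% (100 to 1000) and 32.5% (at least 1000), and P699 at 41.9, 45.7 and 32.1%. With MI2 left out of the reference too, P699 was at 36.2% and the other Patch libraries at −11.6 to 2.5%. No test was made of these positions, since each uses the other 7 libraries.

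**Figure D5:**
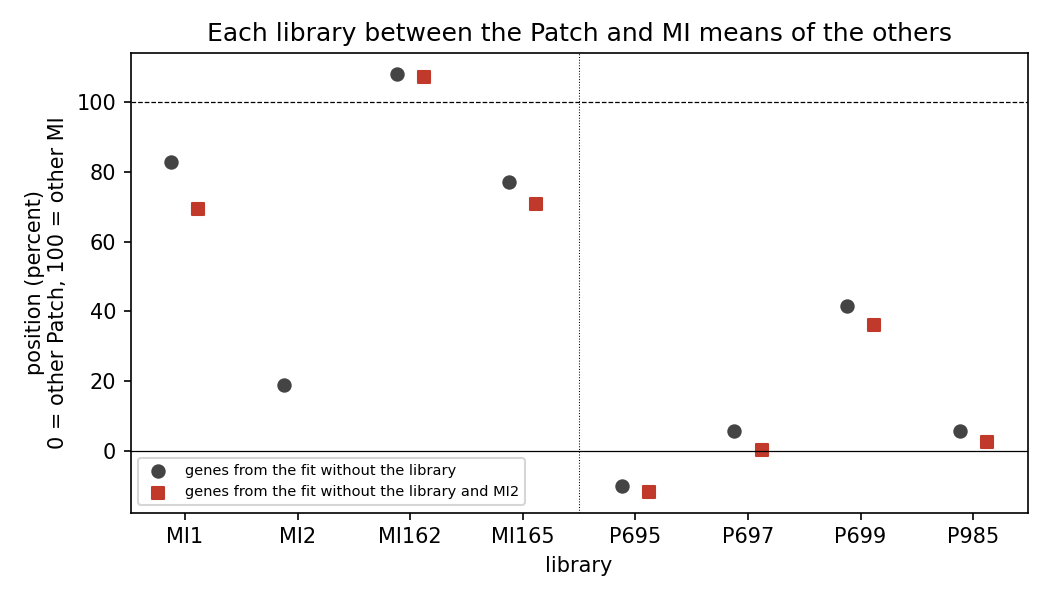
Position of each library, in percent, between the other Patch libraries' mean (0) and that of the other MI libraries (100), over genes with at least a 2-fold difference among the other libraries; circles use all other libraries and squares leave out MI2 as well. Over all classes together, MI2 at 19.0% lies below P699 at 41.5%, an order not seen among genes of at least 1000 (32.5 and 32.1%), and the circles of the remaining libraries lie at 77.0 to 108.0% in MI and −10.1 to 5.9% in Patch, while the squares lie at 69.4% for MI1, 107.2% for MI162, 70.8% for MI165 and −11.6 to 36.2% in Patch.

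In the 2058 genes called higher in MI without MI2, the MI2 value lay within the range of the other MI libraries in 18.0% and within that of the Patch libraries in 39.0%. In the 2220 genes called lower in MI, these shares were 14.7% and 35.4%. The weakest genes behaved differently from the rest. Of the 125 genes higher in MI at 1 to 10, 103 were at 0 in MI2. Among genes of at least 1000, none was at 0, and MI2 still lay within the Patch range in 37.0% of 343 genes higher and 35.5% of 811 genes lower in MI. Among abundant genes MI2 thus lay nearer to Patch than to the other MI libraries. Whether this was less so than at 10 to 100 depends on the measure. Its position was farther from the Patch mean at 1000 or more. Yet among the genes used for the positions, MI2 was nearer to MI in 19.6% at 1000 or more and in 35.1% at 10 to 100. The part of its many genes at 0 in this result was not tested.

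P699 was nearer to its own group than MI2 was. In the 528 genes called higher in Patch without P699, its value lay within the MI range in 7.8%. In 25.0% it lay within the range of the other Patch libraries. It was a median of 0.26 log2 units below their mean, where the groups differed by 1.15. In the 639 genes called lower in Patch, the P699 value lay within the MI range in 29.9%. Only in 15.5% did it lie within the range of the other Patch libraries. It was a median of 0.75 above their mean, where the groups differed by 1.53. P699 thus stood closer to MI in the genes lower in Patch than in those higher. This difference between the 2 sets of genes was not tested. The MI range takes in more libraries, with a wider spread, than the range of the other Patch libraries. Shares within the 2 ranges are therefore not like measures, and no other Patch library was compared in this way.

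Depth differed between the groups without overlap, and the read numbers were therefore made equal. With each library thinned to 11420710 reads and scaled back to its deposited total signal, 1406 genes were called, against 1437. Of the calls in the strongest class, 72.1% were higher in Patch, as before. Thinning left the difference of total signal between the groups in place, so it cannot show what that difference adds. With equal total signal the share higher in that class was 45.5%. No batch is named in the labels or the header.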

How the data were processed

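RNA of rat hearts was sequenced after poly-A selection, per the labels' protocols. The authors deposited a table of normalized signal for 19955 genes. The submitters' processing notes name rn6, HISAT2, SAMtools, featureCounts and DESeq2, with no role or version; strand setting, annotation and the treatment of shared reads are not given in the sources used here, so overlapping genes and near-identical copies could not be told apart. Per the file headers, MI columns carry the name of their group. The 4 Patch columns carry only a P, and their group was inferred from that letter, with which no other group of the labels begins. The numbers in those names were not taken as replicate numbers. Another 2 columns matched no label and were not used.

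In the 8 libraries compared and the 2 sham columns used, the deposited signal values were within 0.001 of whole multiples of 1 step per library, which gave whole reads for 100% of values. An automatic check of these steps did not pass for P699, whose step is close to 1; its reads rest on the closeness of its own values to whole multiples, and every count-based alternative that holds P699 rests on that too. Genes averaging 1 or more in signal across the Patch and MI libraries of a fit entered limma 3.58.1 (R 4.3.3, lmFit, eBayes with trend) on log2(signal + 1). Fits without a library therefore tested a slightly different set of genes. Their class of 1 to 10 can hold genes whose mean over the 8 libraries is under 1 (3209 genes without MI2, 3131 with all libraries). On this scale the change of a weak gene is understated. edgeR 4.0.16 and DESeq2 1.42.0 on the recovered reads, other scalings, filters and pseudocounts, and fits without single libraries were alternatives. The limma and edgeR fits were tested on simulated data with equal spread in both groups and no deviating library, unlike the data here. Library measures used SciPy 1.17.1.

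The comparison, its tests and its lists were chosen with earlier results of these data known. The naming rule was to take, by symbol, the largest called differences without overlap in each abundance class and the 5 largest gains and losses of mean signal. It was applied without symbols and narrowed to 4 identifiers after the counts of calls had been seen and before the values of these genes were looked at; the others are given as ranges. Preset gene lists, marker lists, Piezo1 and Piezo2 were not analysed here for want of symbols. Limits for low counts cover counting error only.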

Additional observations from a re-analysis of the deposited data

Results flagged for a closer look

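Among 24 sets of 4 values (library measures and the signal of the 4 named genes, each in MI and in Patch), 2 had a library far from the other 3, where chance would give about 1.2 in sets that are independent. These sets are not, and both libraries had been singled out earlier from these data, so the count is a description. Genes at 0 numbered 5474 in MI2 and at most 2736 in the other MI libraries. P699 had a signal of 57497 for ENSRNOG00000003357, where the next Patch library had 22988. Without MI2 and P699 the log2 difference of this gene was −3.38, against −2.67 with all libraries. No cause was tested for either value.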

How the results depend on the processing

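The 1437 genes called became 869 with an added log2 difference of at least 1, which can only remove genes, 2251 in a fit with the sham columns, 5195 with limma sample weights and 3217 in DESeq2; the cause was not tested for the last 3. Leaving out 1 library gave 0 (P695, P697 or P985) to 4278 (MI2). Leaving out MI2 with MI1, MI165, P695, P697, P699 or P985 gave 5782, 3909, 2490, 2803, 4287 and 2507. edgeR gave 4113 without MI2, 4109 without MI2 and P699, and 0 without P695, P697 or P985. Sample weights without MI2 and P699 gave 6543. The other 11 alternatives stayed within 1.5 times, at 1018 (edgeR) to 1995 (without MI2 and MI162). These were added after seeing the data: the limma fits without MI2 and 1 further library other than P699, the edgeR and weighted fits without MI2 and P699, edgeR without P695, P697 or P985, and the thinned reads. At 1 to 10, calls numbered 32 with all libraries, 28 with each library thinned to 11420710 reads and 169 without MI2. Thinning matched the total reads only, and what depth alone limits there was not tested. No paired analysis was possible because the column names carry no replicate numbers of the labels.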
